A study of Mus musculus with 10 samples.

Results

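The 10 genes described here, Rora, Prkcd, Tnnt1, Lef1, Gbx2, Plekhg1, Ramp3, Rgs16, Synpo2 and Adarb1, are used as markers of thalamic neurons. They were taken by symbol from the 32531 gene rows of the deposited counts, as a measure of neighbouring thalamus in pull-downs from the medial habenula. All 10 had a row and all 10 passed the filter for low counts. The mice were adults carrying the BAC transgene Chat-EGFP/Rpl10a (Chat-TRAP DW167), in which regulatory sequence of the cholinergic gene Chat drives an EGFP-tagged ribosomal protein Rpl10a, so that ribosome-bound RNA of the tagged neurons can be captured with antibodies to EGFP. Left and right medial habenula gave 5 immunopurified libraries each, and the series asks how neurons of the sides differ. No unpurified input was used here. Genotype was the same in both groups, and the labels give neither pooling nor whether libraries of a side are separate animals, so p-values measure the spread between these libraries, which may be technical.

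The thalamus lies directly below and beside the habenula and consists largely of glutamatergic relay neurons that project to the cortex. These neurons are set apart during development by homeodomain and nuclear receptor transcription factors such as GBX2 and RORα, and in the adult many of them carry protein kinase Cδ. The medial habenula, by contrast, projects to the interpeduncular nucleus and its ventral neurons make acetylcholine.

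The libraries held 42488448 to 67942836 gene reads. Levels are given as CPM, the reads of a gene relative to all gene reads of the library, after scaling with TMM factors of 0.947 to 1.03. Errors are SD over 5 libraries, and a log2 fold change above 0 means a higher level on the left. Medial habenular genes were present in every library: the summed level of 12 of them was 5376 to 11297 CPM, and none was at 0 in any library. No other tissue was compared, so the tissue label was not tested. Replicates 1 and 5 of a side were unusually alike. The chi-square of their counts per degree of freedom was 1.28 on the right and 2.14 on the left, against 4.34 or more for every other pair, where sampling noise alone gives about 1. They still differed beyond sampling noise (chi-square test, p = 3.20e-19 on the right, over 2310 genes) and were kept as separate libraries. The test cannot tell separate animals from repeat libraries of the same RNA, since both can differ beyond sampling noise. Values below are therefore also given for replicates 2 to 4 apart from replicates 1 and 5, a division made with the results known and given without a test.

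Promoter windows are shown for 4 markers, the gene with the widest range over the libraries (Synpo2), the next widest of the abundant ones (Plekhg1), the troponin gene (Tnnt1) and the one with the narrowest range (Adarb1). Each runs from 250 bases before to 50 bases after a RefSeq transcription start on GRCm38.p6, 5′ to 3′ on the gene's strand. Capitals mark matches on either strand to TAATTA, a core bound by homeodomain proteins, and to TATAAA, the TATA box letters.
Synpo2: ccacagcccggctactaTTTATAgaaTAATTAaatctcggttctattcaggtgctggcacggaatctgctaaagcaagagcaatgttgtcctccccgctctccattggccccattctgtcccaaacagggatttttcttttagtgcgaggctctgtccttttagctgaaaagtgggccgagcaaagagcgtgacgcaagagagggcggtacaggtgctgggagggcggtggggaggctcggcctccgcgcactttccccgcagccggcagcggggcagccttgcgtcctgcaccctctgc
Plekhg1: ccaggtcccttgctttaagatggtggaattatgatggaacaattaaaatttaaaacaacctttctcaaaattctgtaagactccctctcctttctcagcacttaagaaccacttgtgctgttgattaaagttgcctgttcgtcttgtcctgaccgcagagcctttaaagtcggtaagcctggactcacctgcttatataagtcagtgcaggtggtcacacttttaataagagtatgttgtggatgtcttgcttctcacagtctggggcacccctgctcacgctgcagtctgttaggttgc
Tnnt1: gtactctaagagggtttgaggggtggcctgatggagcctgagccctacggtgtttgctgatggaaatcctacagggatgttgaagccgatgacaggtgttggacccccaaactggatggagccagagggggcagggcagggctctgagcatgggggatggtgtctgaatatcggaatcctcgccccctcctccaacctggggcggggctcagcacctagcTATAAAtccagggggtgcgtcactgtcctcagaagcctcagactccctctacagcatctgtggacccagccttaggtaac
Adarb1: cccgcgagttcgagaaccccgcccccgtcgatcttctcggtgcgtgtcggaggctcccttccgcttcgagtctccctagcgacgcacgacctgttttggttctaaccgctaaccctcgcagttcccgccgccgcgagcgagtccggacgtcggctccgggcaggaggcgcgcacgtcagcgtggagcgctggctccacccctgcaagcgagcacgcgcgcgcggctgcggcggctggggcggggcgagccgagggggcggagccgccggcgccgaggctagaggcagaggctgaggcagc
The windows lie at chr3:123236100-123236399 (minus strand), chr10:3872417-3872716 (plus strand), chr7:4515926-4516225 (minus strand) and chr10:77418224-77418523 (minus strand). The Plekhg1 start is an internal one, since the gene runs from 3740364 to 3967303 on chromosome 10 in GENCODE M21. In Tnnt1 the TATAAA letters begin 30 bases before the start, whereas in Synpo2 both matches lie far upstream, at -224 for TAATTA and -233 for the reverse of TATAAA. The Adarb1 window had 46 CpG dinucleotides and 73.0% G and C, and the Plekhg1 window 4 and 44.3%, beside medians of 7 and 52.7% over 32851 windows of the genome. Over the 14 windows of the 10 markers, TATAAA occurred in 4 and TAATTA in 1, while 13.6% and 5.29% of all windows hold them. AGGTCA, the half-site of ROR receptors, and CTTTGAT, a site of TCF and LEF proteins, occurred in 0 of the 14 windows, and 16.3% and 3.73% of all windows hold them.

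In GENCODE M21 on GRCm38 the transcription factor genes lie at chr9:68653786-69388246 (Rora, plus strand), chr3:131110471-131224356 (Lef1, plus) and chr1:89927956-89931179 (Gbx2, minus). The signalling genes lie at chr14:30595354-30626210 (Prkcd, minus), chr10:3740364-3967303 (Plekhg1, plus), chr1:153740349-153745468 (Rgs16, plus) and chr11:6658521-6677475 (Ramp3, plus). The others lie at chr3:123076519-123236149 (Synpo2, minus), chr7:4504570-4516382 (Tnnt1, minus) and chr10:77290726-77418270 (Adarb1, minus). Levels of a side are listed below in the order of replicates 1 to 5.

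The transcription factors ranged from abundant to barely detected. Rora encodes RORα, a nuclear receptor that shapes thalamic and cerebellar neurons. Its level was 163, 516, 567, 824 and 148 CPM in left replicates 1 to 5 and 142, 359.6, 754, 799.8 and 139 CPM in right replicates 1 to 5. Replicates 1 and 5 were the lowest on each side, and the sides overlapped over nearly their whole range. The mean was 444 ± 288 CPM in left and 439 ± 322 CPM in right libraries. Lef1, a DNA-binding effector of Wnt signalling, stayed between 41.8 and 63.6 CPM, with 41.8, 63.6, 52.4, 59.1 and 48.4 CPM in left and 44.7, 55.5, 52.8, 56.1 and 45.9 CPM in right libraries. It was thus present at a similar level in every library, including replicates 1 and 5, where every marker was lowest. Gbx2, the homeodomain factor required for thalamic development, was close to absent. It had 2, 30, 33, 38 and 3 reads in the left libraries and 0, 9, 46, 35 and 1 in the right ones, which is at most 0.870 CPM. Where it had 0 reads, in right replicate 1, a limit of 3 reads allows up to 0.0441 CPM, so its highest level was at least 19.7-fold higher. This limit covers counting error only.

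The signalling genes were low in replicates 1 and 5 and, except for Ramp3, several times higher in the other libraries. Prkcd, which encodes protein kinase Cδ and labels relay neurons, stood at 15.3, 178, 175, 247 and 14.4 CPM in left and 13.2, 96.9, 304, 229 and 15.0 CPM in right libraries. Plekhg1, a guanine nucleotide exchange factor of small GTPases, stood at 22.9, 221, 297, 476 and 20.8 CPM in left and 17.9, 141, 435, 384 and 18.3 CPM in right libraries. For both genes right replicate 2 was the lowest of the 6 libraries numbered 2 to 4 and still stood several times above replicates 1 and 5. Rgs16, which speeds the shut-off of Gαi and Gαq signalling, stood at 7.82, 56.3, 52.3, 59.2 and 7.46 CPM in left and 9.31, 30.1, 77.1, 74.3 and 8.46 CPM in right libraries. Ramp3, a membrane partner of calcitonin-family receptors, was rare and varied less. It stood at 2.48, 7.36, 5.98, 6.95 and 2.56 CPM in left and 3.07, 3.61, 11.8, 10.9 and 3.27 CPM in right libraries. Its level in right replicate 2 was hardly above that of replicates 1 and 5.

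The cytoskeletal and RNA-editing genes held the widest and the narrowest ranges of the set. Synpo2, an actin-binding protein also named myopodin, stood at 7.41, 126, 172, 248 and 8.23 CPM in left and 8.14, 80.0, 255, 197 and 7.89 CPM in right libraries, a 34.4-fold range. Tnnt1, the slow skeletal troponin T that thalamic neurons also transcribe, stood at 1.07, 5.79, 5.98, 5.01 and 1.09 CPM in left and 1.51, 3.37, 8.07, 11.1 and 1.16 CPM in right libraries. Both were lowest in replicates 1 and 5 on either side, with the sides overlapping. Adarb1, the adenosine deaminase ADAR2 that edits glutamate receptor transcripts, stood at 287, 357, 361, 374 and 298 CPM in left and 289.6, 313, 427, 397 and 289.8 CPM in right libraries. The 1.49-fold range of Adarb1 and the 1.52-fold range of Lef1 were the smallest of the 10. The label of thalamic marker is thus not borne out evenly: Lef1 and Adarb1 were nearly as high in the libraries where Synpo2, Plekhg1 and Prkcd were lowest as in the others.

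**Figure D1:**
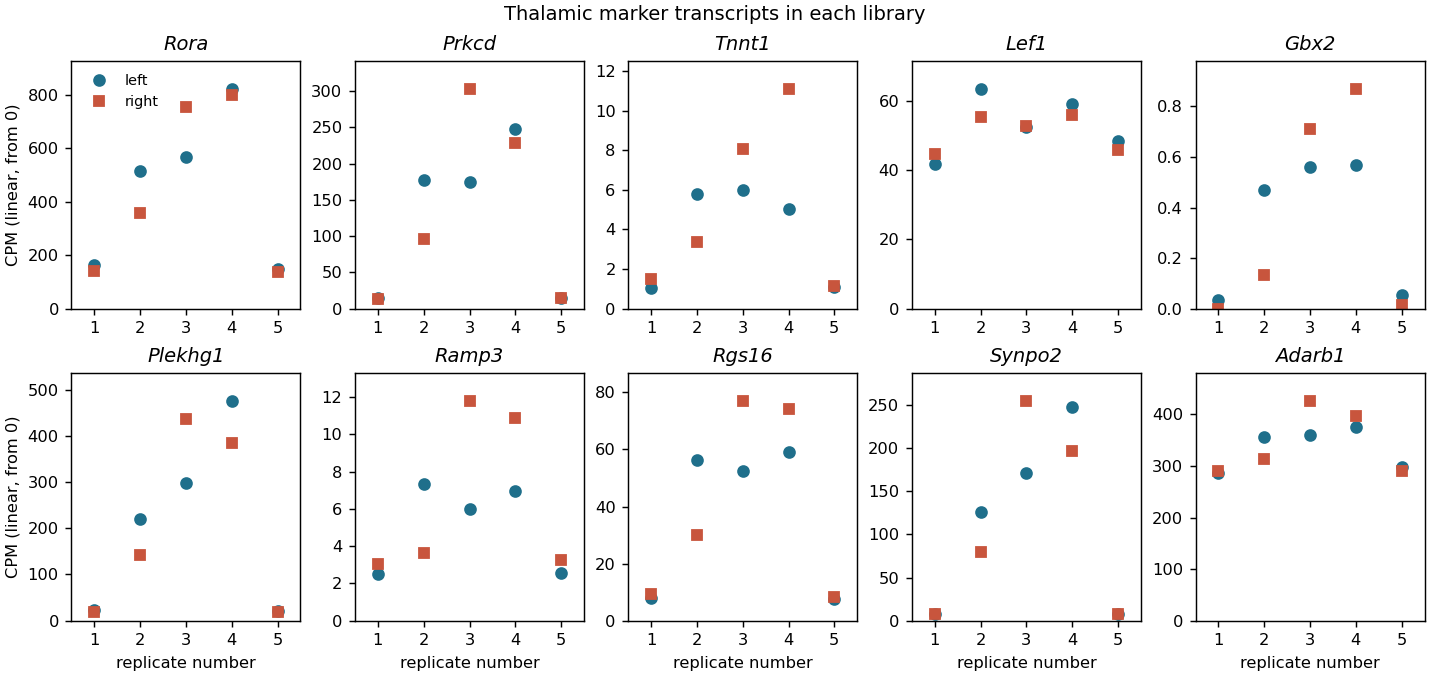
CPM of each of the 10 thalamic markers (vertical axes, linear and from 0) against replicate number, with circles for the 5 left and squares for the 5 right libraries. Replicates 1 and 5 lie lowest in every panel, by a wide margin for Synpo2 (7.41 to 8.23 CPM against 80.0 to 255 CPM) and by a narrow one for Adarb1 (287 to 298 CPM against 313 to 427 CPM).

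All 10 markers had a higher level in each library of replicates 2 to 4 than in any library of replicates 1 and 5. Of all 16250 genes tested, 24.8% had this order and 23.6% the opposite one. The markers differed mainly in how far the groups of libraries lay apart. Prkcd ranged 22.9-fold over the 10 libraries, Plekhg1 26.5-fold, Tnnt1 10.4-fold, Rgs16 10.3-fold, Rora 5.95-fold and Ramp3 4.76-fold. On the log2 CPM scale, with 2 counts added, the difference between the highest and the lowest library was 5.10 for Synpo2 and 0.57 for Adarb1, with a median of 3.35 over the 10 markers and of 1.03 over all genes tested. In pull-down RNA, fewer thalamic cells, less RNA per cell and less carry-over of RNA from untagged cells cannot be told apart.

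**Figure D2:**
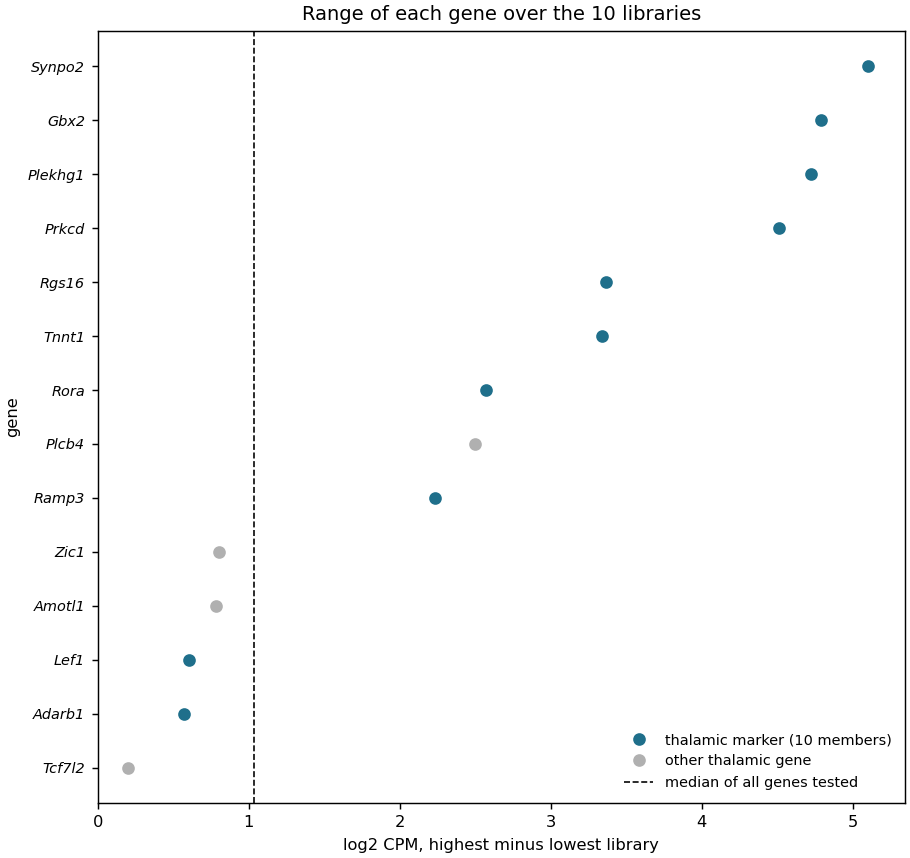
Difference in log2 CPM between the highest and the lowest of the 10 libraries (horizontal axis) for the 10 markers and the 4 most abundant other thalamic genes (vertical axis, ordered by that difference). The dashed line marks the median of all genes tested, 1.03, with Lef1 at 0.60 and Adarb1 at 0.57 left of it and the other 8 markers right of it.

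Compared per kilobase of exon, the order of the markers depended on the library. In right replicate 5 Adarb1 led with 25.7 CPM per kilobase, followed by Rora at 10.6, Lef1 at 5.22, Rgs16 at 3.62, Prkcd at 2.71, Ramp3 at 2.37 and Plekhg1 at 2.10, with Synpo2 and Tnnt1 at 0.603 and 0.528. In right replicate 3 Rora led with 57.7 CPM per kilobase, followed by Prkcd at 54.8, Plekhg1 at 49.8, Adarb1 at 37.8, Rgs16 at 33.0 and Synpo2 at 19.5. There Lef1, at 6.01, stood below Ramp3, at 8.56. Gbx2 was last in both, at 0.00685 and 0.326 CPM per kilobase. Gbx2 shares 43.5% of its exonic bases with a gene on the other strand, Lef1 13.8%, Rgs16 10.1%, Ramp3 7.32% and Rora 0.627%. Whether reads were counted by strand, and with which annotation, is unknown from the labels. Reads set aside as ambiguous made up 2.25% to 2.81% of a library. Over shared bases, reads of these genes may thus have been left out or mixed with those of their antisense partners. The other 5 markers share none.

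Some of the strongly varying markers kept similar proportions to each other. Between the members of each pair named here, the ratio of CPM values is given. Plekhg1 over Synpo2 lay between 1.71 and 1.95 in the 6 libraries of replicates 2 to 4, a 1.14-fold spread, while each of the genes by itself varied more than 3-fold among them. In replicates 1 and 5 that ratio was 2.21 to 3.10. Prkcd over Plekhg1 lay between 0.519 and 0.820 over all 10 libraries, a 1.58-fold spread. Lef1 over Adarb1, which are not strongly varying, lay between 0.124 and 0.178. That 1.44-fold spread was close to the 1.52-fold and 1.49-fold ranges of these genes by themselves. Across these sets the proportions broke down: Rora over Synpo2 was 2.95 to 4.50 in replicates 2 to 4 and 17.5 to 22.0 in replicates 1 and 5. Rora kept more of its level in the libraries where Synpo2, Plekhg1 and Prkcd were lowest. Rorb, the related receptor RORβ, chosen after its values were seen, followed Rora closely, and their ratio lay between 3.97 and 5.70.

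**Figure D3:**
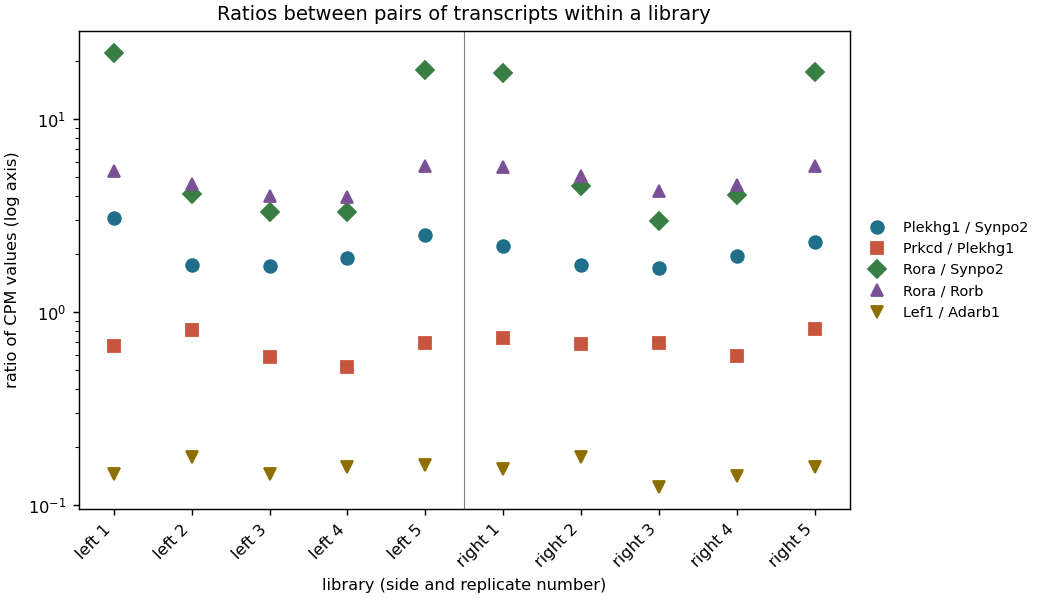
Ratio of CPM values (vertical axis, log scale) for 5 pairs of transcripts in each of the 10 libraries (horizontal axis, side and replicate number). Plekhg1 over Synpo2, Prkcd over Plekhg1, Rora over Rorb and Lef1 over Adarb1 stay within narrow bands, while Rora over Synpo2 moves from 2.95 to 22.0. Lef1 and Adarb1 range only 1.52-fold and 1.49-fold by themselves.

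No marker differed between the left and the right side beyond the spread between libraries. The quasi-likelihood test of edgeR, fitted to all 16250 genes with side as its term, called 0 of the 10 markers at an adjusted p under 0.05, and 0% of all genes tested. At an unadjusted p under 0.05 it found 0 markers and 90 genes. DESeq2 called 0 markers too, with 0 at an unadjusted p under 0.05 (141 among all genes), and limma-voom with sample weights 0, with 5 markers at an unadjusted p under 0.05 (2409 among all genes). Log2 fold changes of the markers in the edgeR fit lay between -0.41 and 0.06, with 4 above and 6 below 0 and a median of -0.02, and the median over all genes was -0.01. In the limma-voom fit, which gave right replicates 1 and 5 the highest weights, all 10 lay above 0, from 0.18 for Adarb1 to 3.64 for Gbx2, with Rora at 1.18 and Plekhg1 at 2.28. The intervals were wide for the variable markers. For Synpo2 the fold change was 0.03 (95% interval -2.53 to 2.60), for Plekhg1 0.06 (-2.32 to 2.43) and for Prkcd -0.06 (-2.32 to 2.20). With side as the only term, differences of several fold between the sides were thus not detectable for these genes. For the evenly expressed markers the intervals were narrow, with 0.06 (-0.23 to 0.35) for Lef1 and -0.03 (-0.35 to 0.29) for Adarb1. Rora stood at 0.02 (-1.39 to 1.42), Rgs16 at -0.12 (-1.90 to 1.65), Ramp3 at -0.36 (-1.48 to 0.75) and Tnnt1 at -0.41 (-2.03 to 1.21). Gbx2 stood at -0.01 (-2.70 to 2.68). No marker had all 5 libraries of a side above all 5 of the other, an order that 0.0985% of genes tested showed for the left and 0.105% for the right.

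With the glial score, the mean log2 CPM of astrocyte, oligodendrocyte, microglial and endothelial genes, as a covariate, the intervals became much narrower and still included 0 for all 10 markers. Rora then stood at 0.12 (-0.09 to 0.33), Prkcd at 0.10 (-0.15 to 0.36), Plekhg1 at 0.22 (-0.07 to 0.51) and Synpo2 at 0.09 (-0.21 to 0.40). Over replicates 1 and 5 alone, which differ little among themselves, edgeR called 12.8% of 15569 genes, 5.74% higher on the left and 7.06% higher on the right. Of the 9 markers tested there, 1 was called, Plekhg1, higher on the left with a log2 fold change of 0.28 (0.12 to 0.43, adjusted p = 0.0376). That share is near the background, and the libraries of a side in this fit are the unusually alike ones.

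Among same-numbered libraries the side with more marker RNA changed from number to number. For replicate 2 all 10 markers had a higher log2 CPM on the left, by a median of 0.72, and for replicate 3 all 10 had a higher one on the right, with a median difference of -0.49. Replicates 1, 4 and 5 were split, with 4, 5 and 6 markers higher on the left. The labels put same-numbered libraries of replicates 2, 3, 4 and 5 on a shared lane each and those of replicate 1 on different lanes, and do not say that a number marks a shared animal.

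**Figure D4:**
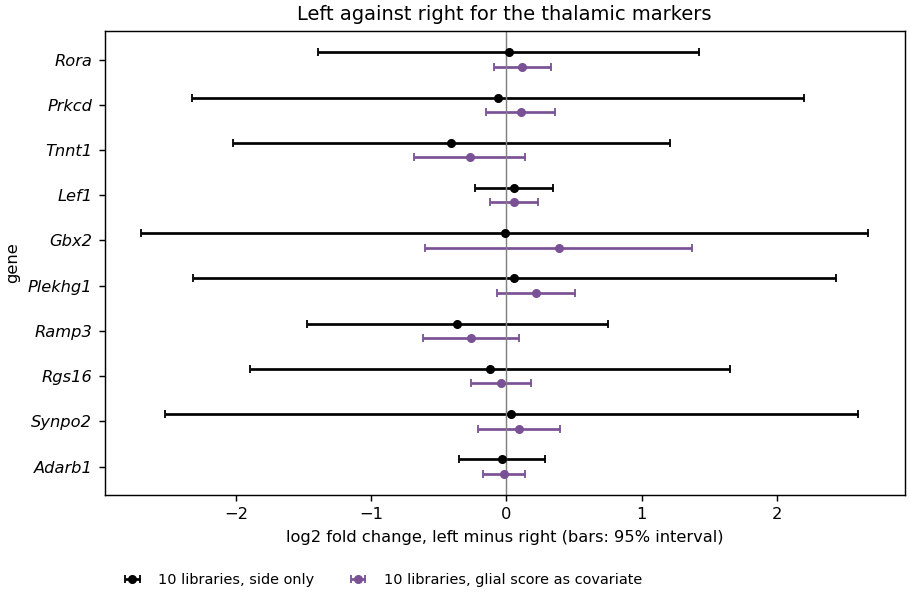
Log2 fold change, left minus right, of each marker (horizontal axis) with its 95% interval, from edgeR fits to 10 libraries with side as the only term (black) and with the glial score as a covariate (purple). All intervals include 0, and they narrow with the covariate, from -2.53 to 2.60 down to -0.21 to 0.40 for Synpo2.

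Most genes of 4 lists for other cells and regions moved with the thalamic markers. The summed level of the 10 thalamic markers was 549, 1531, 1688, 2301 and 549 CPM in left replicates 1 to 5 and 529.6, 1083, 2326, 2160 and 528 CPM in right replicates 1 to 5. Summed levels of 10 astrocyte genes ran from 103 to 1484 CPM in left and from 102 to 1513 CPM in right libraries. All 10 were above replicates 1 and 5 in each library of replicates 2 to 4, an order that 24.8% of all genes tested showed. Slc1a2, the astrocytic glutamate transporter, led that list at 451 ± 438 and 441 ± 485 CPM. For 8 oligodendrocyte genes the summed level ran from 78.8 to 1031 and from 80.8 to 1048 CPM, again with all 8 in that order. The lateral habenular list (6 of 7 in that order) ran from 91.5 to 652 and from 104.5 to 716 CPM. GABAergic genes of the reticular thalamus (4 of 7) ran from 31.3 to 363 and from 47.2 to 511 CPM. Their leading gene Gad2, which makes GABA, stood at 149 ± 132 and 181 ± 178 CPM. Gad1, Gad2, Slc32a1 and Spp1 had that order, while Pvalb and Six3 overlapped between the groups of libraries. Ecel1 had the opposite order. Its highest level among replicates 2 to 4 was 2.46 CPM, below its lowest of 2.78 CPM in replicates 1 and 5. In these 4 lists no gene was at 0 in any library. Their part in the levels of the thalamic markers was not tested.

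Microglial and endothelial genes were low, but most of them had the order of the thalamic markers too. Hippocampal genes were divided, and medial habenular genes ran the other way. The microglial gene Aif1 and the endothelial genes Cldn5 and Cdh5 were at 0 in some libraries of replicates 1 and 5. Microglial genes (4 of 7 tested) summed to 6.67 to 34.4 CPM and endothelial genes (6 of 7) to 4.02 to 26.6 CPM over the 10 libraries. The median log2 difference between the highest and the lowest library was 4.01 for the microglial and 5.09 for the endothelial genes. For the thalamic markers it was 3.35. Pecam1, an endothelial adhesion molecule, stood at 4.10 ± 0.398 and 4.83 ± 1.10 CPM. Hippocampal genes (3 of 6) summed to 188 to 299.9 CPM, led by the transcription factor Prox1 at 112 ± 62.0 and 104 ± 54.4 CPM. Medial habenular genes were higher in replicates 1 and 5, with 10 of 12 above every library of replicates 2 to 4. Of all genes tested, 23.6% had that order and 24.8% the opposite one. The summed level of the medial habenular genes was lowest in right replicate 3, at 5376 CPM, where the thalamic sum was highest. Nwd2, the leading gene of that list, stood at 2388 ± 488 and 2307 ± 496 CPM. CPM values of a library share 1 total, so levels of the lists are not independent of each other.

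**Figure D5:**
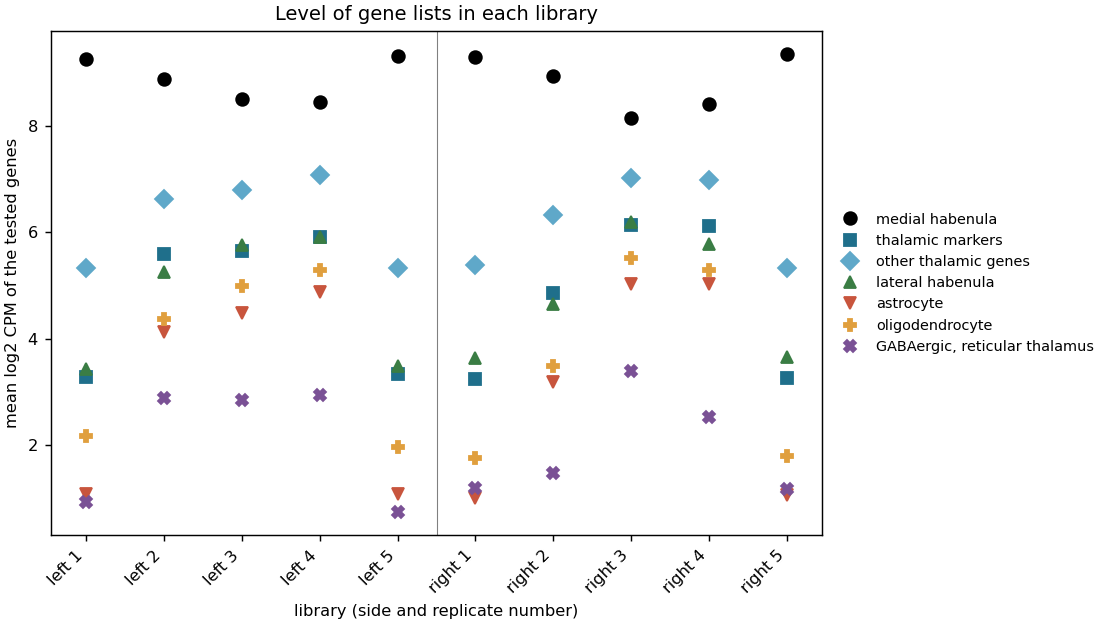
Mean log2 CPM of the tested genes of 7 lists (vertical axis) in each library (horizontal axis, side and replicate number). The thalamic markers lie between 3.23 and 3.32 in replicates 1 and 5 and between 4.86 and 6.15 in the other 6 libraries, the glial, lateral habenular and other thalamic lists follow them, and the medial habenular list runs the other way.

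Relative to an astrocyte transcript Synpo2 was steadier than in its own level, while Rora was hardly so. The ratio of Synpo2 to Slc1a2 lay between 0.191 and 0.384 over the 10 libraries, a 2.01-fold spread, while the genes themselves ranged 34.4-fold and 32.0-fold. Right replicate 2 had the highest ratio and right replicate 4 the lowest. The ratio of Rora to Slc1a2 moved more, from 0.767 to 4.36, and was highest in replicates 1 and 5. That 5.68-fold spread was close to the 5.95-fold range of Rora itself.

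Other genes known from the thalamus split in the same manner. Of 20 further thalamic genes, 15 were above replicates 1 and 5 in each library of replicates 2 to 4 and 2, the calcium-binding protein Calb2 and the zinc finger factor Zic4, were below in all of them. Over all genes tested these shares were 24.8% and 23.6%. None of the 20 genes was called between the sides by edgeR, whose smallest adjusted p over the list was 1, and 0 had an unadjusted p under 0.05. Plcb4, a phospholipase C of relay neurons and among the most abundant of the list, ranged from 150.2 to 849 CPM. Amotl1, a junctional scaffold protein, ranged from 369 to 636 CPM. Tcf7l2, the Wnt effector that both thalamus and habenula express, was nearly constant at 1123 to 1289 CPM, and the zinc finger factor Zic1 stood at 1092 to 1909 CPM with replicates overlapping. Their log2 fold changes between the sides were 0.04 for Plcb4 (95% interval -1.31 to 1.39), 0.04 for Amotl1 (-0.34 to 0.42), -0.05 for Tcf7l2 (-0.22 to 0.13) and -0.04 for Zic1 (-0.42 to 0.35). Chosen after their values were seen, the calcium-binding protein Necab1 ranged 20.2-fold and the T-type calcium channel Cacna1g 12.1-fold.

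Relatives and partners of the markers were examined to see which family members the pull-downs held. Of 36 such genes 32 were tested, 0 were called between the sides by edgeR and 1 had an unadjusted p under 0.05. Among protein kinases C, Prkcb stood at 1572 ± 125 CPM in left and 1518 ± 209.7 CPM in right libraries and Prkcq at 567 ± 76.3 and 533 ± 116 CPM, with Prkcq lower in replicates 2 to 4 than in replicates 1 and 5 and Prkcb overlapping between them. Prkce ranged 2.02-fold, from 133 to 269.7 CPM. Rgs8, the most abundant RGS gene of the list, stood at 427 ± 63.2 and 432 ± 59.5 CPM, a 1.42-fold range beside the 10.3-fold range of its relative Rgs16. Chosen after its values were seen, Calcrl, the receptor that pairs with RAMP proteins, was highest where Ramp3 was low, at 59.7 to 70.5 CPM in replicates 1 and 5 and 31.6 to 57.1 CPM in the others. Such an order, also that of Prkcq, was shown by 23.6% of all genes tested.

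The genes whose profile over the libraries was most like that of the markers were found by the root mean square difference of centred log2 CPM values over the 10 libraries, among 8955 genes averaging 10 CPM or more. The closest was the serotonin receptor Htr2c at 0.118, which is also a gene of the lateral habenular list. Next were the noncoding RNA Miat at 0.134, the ryanodine receptor Ryr3 at 0.140, the cholesterol hydroxylase Cyp46a1 at 0.151 and the membrane protein gene Tmem88b at 0.155. The median over the genes compared was 1.30. Htr2c ranged from 8.58 to 61.2 CPM and Ryr3 from 11.8 to 84.4 CPM. Of the markers themselves, Rgs16 at 0.191 and Rora at 0.223 lay closest to their common mean profile and Adarb1 at 1.05 and Lef1 at 1.10 farthest from it. The libraries share depth, scaling and the division by replicate number, so this likeness is a description over 10 libraries and carries no test.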

How the data were processed

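Ribosome-bound RNA was sequenced from 10 immunopurified libraries, 5 per side, with sides taken from the sample titles. The authors deposited raw counts for each library, with 32537 rows, of which 6 without a gene name were left out of totals and tests. Reads in no feature made up 13.6% to 18.9%. The submitters' processing notes name STAR 2.0.0e, HTSeq and mm10. Annotation and strand setting: not given in the sources used here.

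All 16250 genes passing filterByExpr (minimum count 10) were fitted with edgeR 4.0.16 in R 4.3.3 (TMM, robust quasi-likelihood F test by side, two-sided, Benjamini-Hochberg adjusted p under 0.05, 95% intervals from the F statistic). Log2 CPM has a prior count of 2. The fit was tested on simulated data. Alternatives were other scalings, filters and tools (DESeq2 1.42.0, limma 3.58.1), blocks, a covariate (glial score: mean log2 CPM of astrocyte, oligodendrocyte, microglia and endothelium markers) and sets of libraries. Exon lengths and overlaps came from GENCODE M21 and promoters from RefSeq (GRCm38.p6), matched by symbol for 10 of 10 markers. The members, lists and tests were chosen with earlier results of these data known. Besides the 10 markers, the text names the 4 most abundant other thalamic genes, the 6 most abundant relatives, the most abundant gene of each further list and the 5 genes of most similar profile; others are marked as chosen after their values were seen. A few genes of this rule are not reported here. Figures were drawn with matplotlib 3.10.9.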

Additional observations from a re-analysis of the deposited data

How the results depend on the processing

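The counts of called genes and of called markers stayed at 0 under other scalings, filters, tools, blocks, the glial covariate, an adjusted p under 0.10, replicates 2 to 4 alone, replicates 1 and 5 summed, and without any 1 library (range 0 to 0). They changed with replicates 1 and 5 alone, where edgeR called 1992 of 15569 genes (12.8%) and 1 of 9 tested markers, Plekhg1, higher on the left (log2 fold change 0.28, adjusted p = 0.0376, against 0.282 in limma-voom and at least 0.999 in the other fits). That fit rests on libraries that are unusually alike, and its markers with changed sign were Prkcd (0.077), Lef1 (-0.0038), Synpo2 (-0.033) and Adarb1 (0.016). No marker was called under any other alternative tried. The replicate block gave 0 calls among 16250 genes in edgeR (297 had an unadjusted p under 0.05), and the signs of Prkcd (0.069) and Gbx2 (0.45) turned. With that block the interval of Synpo2 ran from -0.26 to 0.41, against -2.53 to 2.60 with side as the only term. The numbers paired only some libraries by deviations from the side means. These correlated at 0.0962 for replicate 2 and at 0.715 to 0.873 for the others. Left replicates 1, 3 and 5 correlated best with the right library of their number, and left replicates 2 and 4 with right replicate 3. By the chi-square of counts, left and right replicate 2 were each other's closest library, at 9.13 per degree of freedom. Prkcd and Gbx2 also turned with lanes as a block (0.045 and 0.35) and with the glial covariate (0.10 and 0.39), and Gbx2 without scaling factors (0.044) and without a filter (0.015). The largest shifts came with sample weights in limma-voom, which put all 10 markers above 0 and turned Prkcd (2.11), Tnnt1 (1.12), Gbx2 (3.64), Ramp3 (0.56), Rgs16 (1.44) and Adarb1 (0.18). The cause was not tested. In that fit right replicates 1 and 5 had weights of 4.06 and 3.84, against at most 1.54 for the other libraries. Without 1 library at a time the log2 fold change ran from -0.33 to 0.36 for Rora, -0.46 to 0.53 for Prkcd, -0.66 to 0.11 for Tnnt1, -0.016 to 0.14 for Lef1, -0.34 to 0.67 for Gbx2, -0.51 to 0.58 for Plekhg1, -0.54 to -0.02 for Ramp3, -0.38 to 0.28 for Rgs16, -0.48 to 0.63 for Synpo2 and -0.087 to 0.065 for Adarb1. Levels without TMM factors moved by less than 1 SD for all markers.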

Other observations

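Tnnc1, the slow troponin C that partners troponin T in muscle, differed from Tnnt1 in its pattern. Chosen after its values were seen, it had 16, 17, 7, 19 and 17 reads in left replicates 1 to 5 and 46, 31, 36, 60 and 37 reads in right replicates 1 to 5. Its level was 0.249 ± 0.0755 CPM in left and 0.747 ± 0.423 CPM in right libraries, and all 5 right libraries lay above all 5 left ones, which 0.105% of genes tested did. The log2 fold change was -1.57 (95% interval -2.51 to -0.63) and did not pass in edgeR after adjustment over all genes (adjusted p = 1, unadjusted p = 0.00381). Calcr, the calcitonin receptor, had too few reads for the test, with 2, 14, 40, 3 and 0 reads in left replicates 1 to 5 and 10, 10, 85, 5 and 9 in right ones, so that the third replicate of each side held the most.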
